A study of Mus musculus with 12 samples.

Results

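The 200 most abundant long noncoding RNAs (lncRNAs) of the mouse brain hemisphere were described across sham-operated mice, mice with ischemia given vehicle, and mice with ischemia given a seaweed polysaccharide. These lncRNAs were chosen by measured values: the 12638 genes annotated as lncRNA, of 39756 genes in the count table, were ranked by their mean raw count over all 12 mice, and the first 200 were kept. The ranking took no account of group, so the order of abundance below is a description without a test, while the comparisons between groups were tested. A member with counts high in only some groups could still enter, as described for Gm15418 below. The RNA came from ischemic hemispheres of C57BL/6J mice, male adults by the study's methods, with 4 mice labelled Sham, 4 labelled Vehicle and 4 labelled LJP. Sham mice had a mock operation. Vehicle and LJP mice both had transient middle cerebral artery occlusion (tMCAO), a temporary closure of a main brain artery followed by reperfusion. LJP mice received Laminaria japonica polysaccharide by the stomach each day before and after the occlusion. Sham and Vehicle mice both received saline on the same schedule, by the study's methods. The labels name neither the dose nor the time of sampling, the study's text takes its middle dose on to later experiments without naming the sequenced mice, and the batch label is the same for all 12. In whole-hemisphere RNA, fewer cells of a type and less RNA per cell cannot be told apart.

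A lncRNA is transcribed, and usually capped, spliced and polyadenylated, like a messenger RNA, but carries no long open reading frame. Some act in the nucleus on splicing or chromatin, among them Malat1, Neat1 and Kcnq1ot1. Others, such as Norad and Bc1, work in the cytoplasm by binding proteins that control RNA decay or translation. Many more are known mainly as carriers: the introns of Gas5 and Zfas1 hold small nucleolar RNAs (snoRNAs), which guide the modification of ribosomal RNA, and other transcripts hold microRNAs, short RNAs that repress messengers through a seed of matching bases near their start. The brain is rich in lncRNAs, several of which, such as Meg3, Rian and Peg13, come from imprinted loci that are read from a single parental chromosome.

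Small RNAs lay inside several of the 200. By position on the same strand, 14 members held at least 1 microRNA hairpin of the RefSeq table (GRCm38.p6), and 7 held at least 1 snoRNA gene. Because the host transcripts below were followed as separate genes, a selection of the mature microRNAs they carry is shown first, with the seed (bases 2 to 8) in capitals. Meg3, Sox2ot and Snhg20 also held microRNA hairpins, as did Gm6145, and Rian, Gm3764, Ftx and Mir100hg held more than are printed. The members, Gm3764 on chromosome 3, Mir9-3hg on chromosome 7 and C130071C03Rik on chromosome 13, held the same miR-9-5p, at 3 separate loci. A330023F24Rik held miR-29b-3p and miR-29c-3p, which share 1 seed. The remaining ones shown came from Mir22hg, from Mir100hg (miR-100-5p and miR-125b-5p), from Rian (miR-370-3p) and from Ftx (miR-374b-5p), each with a seed of its own. Mature microRNAs themselves were not measured, since these libraries were made from polyadenylated RNA.
miR-9-5p: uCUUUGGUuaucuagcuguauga
miR-29b-3p: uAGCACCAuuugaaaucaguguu
miR-29c-3p: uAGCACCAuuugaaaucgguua
miR-22-3p: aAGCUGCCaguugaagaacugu
miR-100-5p: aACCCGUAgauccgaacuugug
miR-125b-5p: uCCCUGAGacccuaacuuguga
miR-370-3p: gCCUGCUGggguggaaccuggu
miR-374b-5p: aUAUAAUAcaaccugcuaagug

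The start regions of the short, snoRNA-linked members are shown because 4 of these 5, picked with that in view, rose after tMCAO (values below). Snhg20 is among them as a listed host, although by position 0 snoRNA genes lay inside it. Each line gives 40 bases before and 50 bases from a RefSeq start site of GRCm38.p6, 5′ to 3′ on the gene's own strand. Transcripts of the translation machinery and of many snoRNA hosts are known to begin in an unbroken run of C and T, so a run of at least 6 such letters that touches the start is in capitals. Such a run was present at the second of the starts listed for Gas5 (6 letters), at 2410006H16Rik (9) and at Snhg8 (7), and was not at the listed starts of Zfas1 and Snhg20. It was found in 10.7% of all 32851 start regions in that table, read on the gene's strand only. By gene, with any listed start, it was found in 12.5% of all gene symbols of the table and in 26 of the 159 members that have a start region there (16.4%). A match is a description of these letters and depends on where the start is annotated.
Gas5 (first start), chr1:161034561-161034650, plus strand: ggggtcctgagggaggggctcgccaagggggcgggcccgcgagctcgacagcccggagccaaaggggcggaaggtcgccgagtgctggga
Gas5 (second start), chr1:161035126-161035215, plus strand: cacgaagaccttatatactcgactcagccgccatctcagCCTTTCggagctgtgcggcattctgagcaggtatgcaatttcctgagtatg
Zfas1, chr2:167062894-167062983, plus strand: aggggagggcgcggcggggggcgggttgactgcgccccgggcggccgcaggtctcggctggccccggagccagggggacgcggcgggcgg
Snhg20, chr11:117076743-117076832, plus strand: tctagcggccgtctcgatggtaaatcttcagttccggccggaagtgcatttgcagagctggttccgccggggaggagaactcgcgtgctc
2410006H16Rik, chr11:62602837-62602926, plus strand: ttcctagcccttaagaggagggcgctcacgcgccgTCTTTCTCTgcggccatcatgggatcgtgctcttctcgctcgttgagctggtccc
Snhg8, chr3:123508287-123508376, minus strand: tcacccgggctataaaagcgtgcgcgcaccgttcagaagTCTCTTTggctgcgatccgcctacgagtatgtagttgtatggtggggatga

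Bc1, a cytoplasmic RNA of dendrites that restrains translation, was the shortest member at 154 bases in the count table. The GENCODE M21 transcript of 168 bases (GRCm38, chr7:144914470-144914637, plus strand) is printed with its longest run of A, 23 bases from position 77 to 99 counted from the 5′ end, in capitals. A made up 41.7% of its bases. Bc1 is shorter than the fragments that the library protocol aimed for, so its level per length carries that limit.
Bc1: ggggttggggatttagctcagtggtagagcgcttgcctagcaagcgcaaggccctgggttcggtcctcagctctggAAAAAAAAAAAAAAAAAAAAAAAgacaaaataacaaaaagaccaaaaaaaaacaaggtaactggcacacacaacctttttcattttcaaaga

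Counts were concentrated in a few transcripts. Meg3, an imprinted nuclear RNA of neurons, held 15.3% of all counts on the 200, the first 5 held 44.1%, the first 20 held 65.1% and the first 50 held 79.1%. Mean raw counts ran from 36293 for Meg3 through a median of 376 to 198 for the last member, and no member fell under 3 counts in any mouse. After Meg3 the order by count was Norad, Malat1, Snhg11, Snhg14, Peg13, Miat, B130046B21Rik, Rian, Gm51543, Gm38733, Neat1, Grin1os, Gm28043, Gm20716, A230070E04Rik, Gm30368, Gm39876, Rnf227 and Mir124a-1hg. Counts grow with transcript length, which ranged from 154 to 88285 bases (median 3690). Per kilobase of the listed length the order changed: Norad led at 275 CPM per kb (mean of 12 mice), followed by Meg3 at 145, Malat1 at 134, Bc1 at 131 and Snhg11 at 119. CPM is the count scaled to library size, and the levels per kb were computed without TMM factors. Neat1, rank 12 by count, was at 6.89 CPM per kb and rank 97, and the very long Kcnq1ot1 was at 0.397. The median member was at 6.46 CPM per kb, and coding genes with a mean count at or above that of the last member had a median of 11.1. Just inside the limit lay Stk35os1 (203), Gm31566 (202), Gm16069 (201), Gm6145 (199.6) and Gm51694 (198) mean counts, and just outside lay D330041H03Rik (198), B230354K17Rik (198), 2310015A10Rik (197), Gm39285 (194) and Gm30934 (192). Symbols of the Gm-number kind belonged to 85 members and of the Rik kind to 58, most of them without a described function.

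Together the 200 took 1.24% ± 0.0332 (SD, n = 4) of all counts in Sham libraries, 1.11% ± 0.0979 in Vehicle libraries and 1.33% ± 0.11 in LJP libraries, a share over the chosen list that was not tested. The Vehicle mice spanned 0.988% to 1.21%, which overlapped the 1.20% to 1.28% of the Sham mice and lay below the 1.23% to 1.46% of the LJP mice. Without the 5 most abundant members the shares were 0.696% ± 0.00862, 0.64% ± 0.0555 and 0.718% ± 0.0311. Of all counts on lncRNA genes, the 200 held 73.6% ± 0.225, 71.2% ± 1.71 and 73.6% ± 0.799 in the same order.

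**Figure D1:**
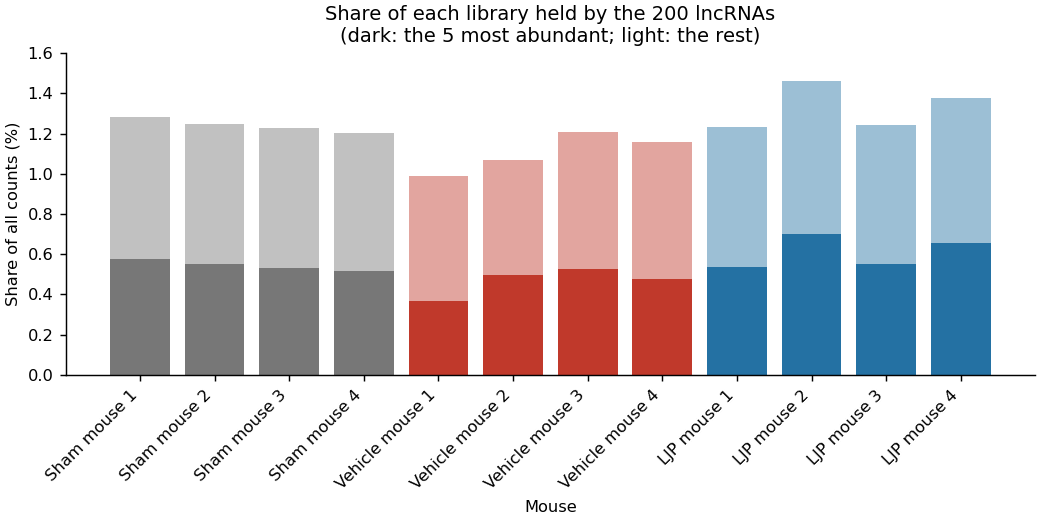
Share of all counts (%) held by the 200 lncRNAs in each of the 12 mice, with the 5 most abundant in the dark part of the bar and the rest in the light part. The LJP bars reach 1.23% to 1.46% and the Vehicle bars 0.988% to 1.21%.

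Total counts were between 17960353 and 22216315 per mouse, and all 200 members passed the filter on low counts that left 17558 genes. Libraries differed within the Vehicle group. Relative to the Sham mean, the median member stood at -0.25 (log2 CPM) in Vehicle mouse 1 and -0.48 in mouse 2, against -0.075 and -0.10 in mice 3 and 4, and 33 and 49 members lay over 1 away from the Sham mean in the first pair against 2 and 3 in the second. Marker genes of cell types differed as well, here in CPM from library size without TMM factors. Summed over 12 neuronal markers CPM was 10275 to 10851 in the Sham, 6343 to 9781 in the Vehicle and 9377 to 10859.6 in the LJP group, over 10 microglia and macrophage markers it was 287 to 298, 591 to 1024 and 538 to 998, and over 8 endothelial and pericyte markers 272 to 294, 385 to 1642 and 266 to 361. The 6 markers of airway and lung epithelium summed to 9.15 to 13.1 CPM in the Sham and 9.20 to 11.5 in the Vehicle mice but 0.358 to 0.664 in the LJP mice, where 4 of them had no count, and 10 neutrophil and lymphocyte markers reached 137 CPM in Vehicle mouse 1 and were at most 1.06 in every Sham and LJP mouse. Choroid plexus markers ranged from 21.3 to 854 CPM among the Sham mice alone. The part of these differences in the results below was not tested.

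The first comparison asked which of these lncRNAs differed after tMCAO, Vehicle against Sham. At an edgeR adjusted p below 0.05 over all 17558 genes, 25 members rose and 47 fell, which is 12.5% and 23.5% of them. Over all genes tested 22.7% rose and 17.3% fell, so the share of members that rose was below the background and the share that fell was above it. Among coding genes with mean counts at or above that of the last member, 22.96% rose and 23.3% fell. The median log2 fold change was -0.22 over the members and 3.54e-05 over all genes, and 143 of the 200 were below 0. The median over the members was -0.10 without Vehicle mice 1 and 2. In 21 members every Vehicle mouse lay above every Sham mouse and in 58 every Vehicle mouse lay below, against 20.7% and 18.8% of all genes. Without Vehicle mice 1 and 2, an alternative chosen after the data had been seen, 15 members rose and 46 fell, against 15.7% and 14.0% of all genes, and 52 of the 61 called were among the 72 called with all mice. Of the members named below that did not pass with all mice, Snhg14, Peg13, Gm39876, Mir124a-1hg, C130071C03Rik, Mir22hg, Ftx, Pvt1, Gm6145 and Gm51694 passed without Vehicle mouse 3, and Snhg14, Peg13, C130071C03Rik, Mir22hg, Pvt1 and Gm6145 without Vehicle mouse 4. Leaving out another single mouse gave a call for A230070E04Rik (Vehicle mouse 1), Peg13 (Vehicle mouse 2), Ftx (Sham mouse 3) and Snhg14 (LJP mouse 4). Without Vehicle mice 1 and 2, A230070E04Rik (-0.26) and Gm20716 (-0.17) passed. For other members that had not passed, the log2 fold changes were then Malat1 -0.12, Meg3 -0.16, Snhg11 -0.045, Snhg14 -0.14, Peg13 -0.17, Grin1os -0.21, Mir124a-1hg -0.048, C130071C03Rik -0.15, Ftx -0.31, Pvt1 -0.16, Gm6145 -0.15 and Gm51694 -0.095.

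**Figure D2:**
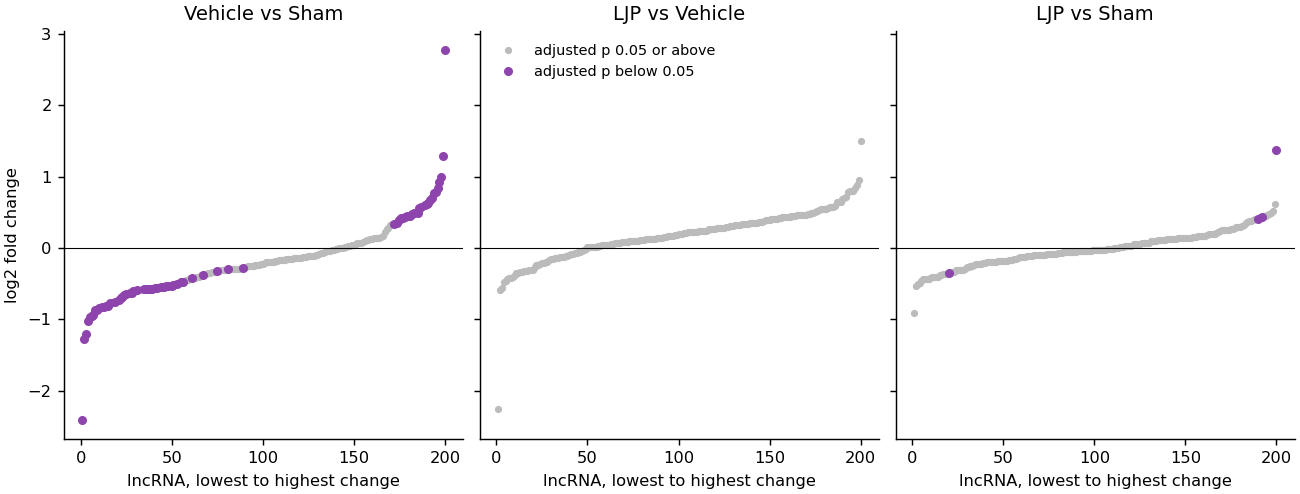
Log2 fold change of each of the 200 lncRNAs in the 3 comparisons, each panel ordered from the lowest to the highest change, with purple points for an edgeR adjusted p below 0.05. In the comparison of Vehicle with Sham 47 points below 0 and 25 above 0 are purple, in LJP against Vehicle 0 are, and in LJP against Sham 4 are.

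Nuclear and chromatin-associated lncRNAs did not move as one. Of the 10 on that list among the 200, 1 rose, 3 fell (Tug1, Kcnq1ot1 and Norad, which is on the list but works mainly in the cytoplasm) and 6 did not pass. Neat1 (nuclear paraspeckle assembly transcript 1, chr19:5824708-5845480, GRCm38, minus strand), the RNA around which paraspeckles form, had 70.2, 69.03, 68.8 and 74.7 CPM in Sham mice 1 to 4, 156, 168, 188 and 179 in Vehicle mice 1 to 4 and 161, 200.0, 236 and 135 in LJP mice 1 to 4, the order used for every list of 4 values. All 8 mice with tMCAO lay above all 4 Sham mice, and the Vehicle group was higher than the Sham group (log2 change 1.29, SE 0.14, edgeR adjusted p = 0.000117), the smallest p among the 200. Malat1 (metastasis associated lung adenocarcinoma transcript 1, chr19:5795690-5802672), a speckle RNA encoded next to Neat1 on the same strand, was at 1037, 958, 933 and 891 CPM in the Sham and 533, 969.9, 970.1 and 798 in the Vehicle mice. Those groups overlapped and the difference did not pass (log2 change -0.22, SE 0.17, edgeR adjusted p = 0.304), and without Vehicle mouse 1, the lowest, it was -0.065. Tug1 (chr11:3639785-3648814), which has been tied to Polycomb repression, was lower in every Vehicle mouse (68.2, 59.04, 58.9 and 62.1 CPM) than in every Sham mouse (80.6, 86.1, 78.6 and 76.3 CPM). Its fall was small but passed (log2 change -0.37, SE 0.070, edgeR adjusted p = 0.00193). Norad (chr2:156388063-156392979), known mainly as a cytoplasmic decoy of Pumilio proteins, was at 1574, 1601, 1555 and 1497 CPM in the Sham and 1188, 856, 1224 and 1191 in the Vehicle mice and fell as well (log2 change -0.48, SE 0.11, edgeR adjusted p = 0.00533). Kcnq1ot1, which silences its imprinted neighbors in cis, had a log2 fold change of -0.53 (adjusted p = 0.0419), a call that was kept in 7 of 19 alternatives and lost without any 1 of the Sham mice, Vehicle mouse 2 or LJP mice 1, 2 or 4 (adjusted p between 0.0532 and 0.1). Its value was -0.34 without Vehicle mouse 1 and -0.27 without Vehicle mice 1 and 2. Meg3 (-0.24), Ftx (-0.47), an X-linked RNA of the inactivation center, Pvt1 (-0.30), beside Myc, Firre (0.020) and Miat (0.072) did not pass, with adjusted p between 0.0515 and 0.911. Ftx did pass with RLE scaling and with DESeq2.

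Of 5 members on the imprinted list, 2 fell, 0 rose and 3 did not pass. Meg3 and Rian lie in the same order and on the same strand of the imprinted Dlk1-Dio3 cluster of chromosome 12, chr12:109540996-109571729 and chr12:109603945-109661716. The spans of Meg3 and Rian both overlap Rtl1, a coding gene on the other strand whose log2 fold change was -0.091. Rtl1 had 12238 mean counts against 36293 for Meg3 and 4712 for Rian, and reads cannot be told apart where exons coincide. Rian, which carries snoRNAs and the miR-370-3p shown above, had 289, 280.0, 275 and 284 CPM under Sham and 189.7, 146, 230.1 and 209 under Vehicle, with no overlap (log2 change -0.54, SE 0.12, edgeR adjusted p = 0.00412). Meg3 was at 2030.3, 1877, 1765 and 1726 CPM in the Sham and 1064, 1869, 1764 and 1567 in the Vehicle mice, where mouse 1 was the lowest and mice 2 and 3 lay within the Sham range (log2 change -0.24, SE 0.18, edgeR adjusted p = 0.291). Without Vehicle mouse 1 the value was -0.093. Snhg14, the host of a long snoRNA array in the Prader-Willi and Angelman region of chromosome 7, was at 553, 546, 561 and 568 and 443, 363, 519 and 494 CPM, and missed the threshold with an adjusted p of 0.0518 (-0.29, standard error 0.11). It passed with DESeq2 (-0.30, adjusted p = 0.0397) and with RLE scaling (-0.30, adjusted p = 0.048). The span of Snhg14 overlaps the coding gene Snrpn on the same strand, with 12313 mean counts against 10020 for Snhg14. Snrpn had a log2 fold change of -0.25, and where the pair shares sequence reads cannot be told apart, so the value of Snhg14 is uncertain. B230209E15Rik, a lncRNA in the same stretch of chromosome 7 (chr7:61529410-61615327), fell from 32.9 ± 2.35 to 18.6 ± 4.72 CPM (SD, n = 4, log2 change -0.83, SE 0.16, edgeR adjusted p = 0.00226). Peg13, a brain transcript inside an intron of Trappc9, had a log2 fold change of -0.40 (adjusted p = 0.0635) and was at 192 CPM in Vehicle mouse 2 against 324 to 372 in the other Vehicle mice. Without that mouse it was -0.23 and passed (adjusted p = 0.0193).

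The snoRNA hosts went in different directions. Of 7 listed hosts among the 200, 3 rose (Gas5, Zfas1 and Snhg20), 1 fell (Rian) and 3 did not pass. Snhg20 is on the list, but by position 0 snoRNA genes lay inside it. Gas5 (growth arrest specific 5, chr1:161034601-161038539, plus strand), whose spliced exons are otherwise degraded quickly, had 27.6, 23.2, 23.1 and 23.9 CPM under Sham and 47.5, 49.6, 35.2 and 34.1 under Vehicle, without overlap (log2 change 0.77, SE 0.13, edgeR adjusted p = 0.000931). Zfas1 (chr2:167062934-167065862, plus strand) rose from 11.2, 12.2, 9.54 and 9.69 to 24.3, 21.5, 17.1 and 17.8 CPM, again without overlap (log2 change 0.92, SE 0.15, edgeR adjusted p = 0.000749). In both, Vehicle mice 1 and 2 were the highest. 2410006H16Rik, which is not on the list but holds 3 snoRNA genes by position, was at 9.11, 7.36, 8.88 and 8.81 and 21.96, 21.2, 11.8 and 13.2 CPM (log2 change 1.00, SE 0.21, edgeR adjusted p = 0.00304). Without those mice the log2 fold changes were 0.50 for Gas5, 0.71 for Zfas1 and 0.54 for 2410006H16Rik, all still passing. Snhg20 rose less, from 11.3 ± 0.764 to 15.2 ± 1.88 CPM (SD, n = 4, 0.43, adjusted p = 0.0139), and did not pass without Vehicle mice 1 and 2 (0.29, adjusted p = 0.107). Snhg8 was at 11.2 ± 1.44 and 14.1 ± 0.916 CPM and did not pass (adjusted p = 0.0845). Snhg11, a long neuronal transcript, did not pass either (-0.19, adjusted p = 0.422, and -0.025 without Vehicle mouse 1). Outside the 200, 8 of 14 tested hosts on the same list rose and 0 fell, among them Snhg1 (1.03), Snhg3 (1.31), Snhg5 (1.24) and Snhg15 (1.20), each higher.

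Among 7 members on the microRNA host list, 1 rose, 0 fell and 6 did not pass. The transcripts over the 3 miR-9 loci gave different values. Mir9-3hg had 30.4, 29.7, 32.4 and 31.9 CPM under Sham and 67.9, 47.7, 41.7 and 34.4 under Vehicle, where all 4 were higher (log2 change 0.62, SE 0.18, edgeR adjusted p = 0.0178). Vehicle mouse 1 was the highest, without it the value was 0.41, and without Vehicle mice 1 and 2 the difference did not pass (0.28, adjusted p = 0.138). C130071C03Rik, also known as the host of the chromosome 13 locus, was at 35.9, 33.9, 35.9 and 32.1 and 22.7, 17.6, 33.05 and 29.4 CPM (-0.43, adjusted p = 0.0612). Gm3764, named for the miR-9 it holds and not by the rule for named genes, was at 60.3, 52.96, 52.8 and 53.4 and 41.6, 49.8, 58.6 and 60.7 CPM (-0.059, adjusted p = 0.733). The differences between these 3 changes were not tested. Mir124a-1hg, the host of a neuronal microRNA, showed the widest spread of the list: 36.9, 26.00, 93.01 and 82.4 CPM in the Vehicle mice against 95.2, 88.2, 95.02 and 82.97 in the Sham mice (-0.60, adjusted p = 0.138), with mice 1 and 2 low and mice 3 and 4 near the Sham level, and was at -0.36 without Vehicle mouse 2. A330023F24Rik, which carries the miR-29b and miR-29c sequences above, had the same division, at 13.1, 13.2, 32.2 and 27.6 CPM in the Vehicle mice against 25.7 ± 2.11 in the Sham group. Mir22hg had its highest values in those mice, with 26.5, 33.3, 15.6 and 17.3 CPM against 16.6 ± 1.14, and Mir100hg was at 19.1 ± 4.43 against 17.6 ± 1.38. Neither passed (adjusted p = 0.0931 and 0.56), and without Vehicle mouse 2 their log2 fold changes went from 0.49 to 0.25 and from 0.12 to -0.063.

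Of 11 members listed as neuronal or forebrain-patterned, 4 fell (Dlx6os1, Pantr1, Sox2ot and Rian), 1 rose (Mir9-3hg) and 6 did not pass. Dlx6os1, known as Evf2 and transcribed from an enhancer of the Dlx genes of forebrain interneurons, had 19.1, 15.5, 15.9 and 13.5 CPM under Sham and 7.22, 2.49, 9.47 and 8.78 under Vehicle. Every Vehicle mouse lay below every Sham mouse, and mouse 2 was lowest (log2 change -1.20, SE 0.30, edgeR adjusted p = 0.00842). Pantr1, beside the neuronal factor gene Pou3f3, fell from 13.6, 12.5, 15.7 and 13.9 to 6.99, 5.71, 8.99 and 10.02 CPM (log2 change -0.82, SE 0.17, edgeR adjusted p = 0.00369). Sox2ot, whose span contains the stem cell factor gene Sox2, fell from 27.3, 27.2, 28.8 and 27.4 to 13.7, 11.5, 20.9 and 18.9 CPM (log2 change -0.77, SE 0.16, edgeR adjusted p = 0.00291), while Sox2 itself, on the same strand, had a log2 fold change of 0.042 (adjusted p = 0.806). Bc1, on none of the lists, was at 30.4, 23.7, 22.6 and 24.4 and 13.8, 14.5, 19.9 and 19.8 CPM (log2 change -0.57, SE 0.14, edgeR adjusted p = 0.00718). Without Vehicle mice 1 and 2 the values were -0.48 for Sox2ot and -0.35 for Bc1, still passing. Of 12 neuronal marker genes 6 fell and 0 rose in the same comparison, with a median log2 fold change of -0.49. The part of the neuronal markers in these changes was not tested.

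Stress- and inflammation-linked lncRNAs lay mostly outside the 200. Of the 5 listed ones among the 200, 2 rose (Neat1 and Gas5), 1 fell (Tug1), and Mir22hg and Pvt1 did not pass. Of 11 tested outside the 200, 6 rose and 0 fell, with a median log2 fold change of 1.20 against 0.49 over the members. In the same comparison 9 of 10 microglia and macrophage markers rose (median 1.71), and their part in the rise of these lncRNAs was not tested.

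**Figure D3:**
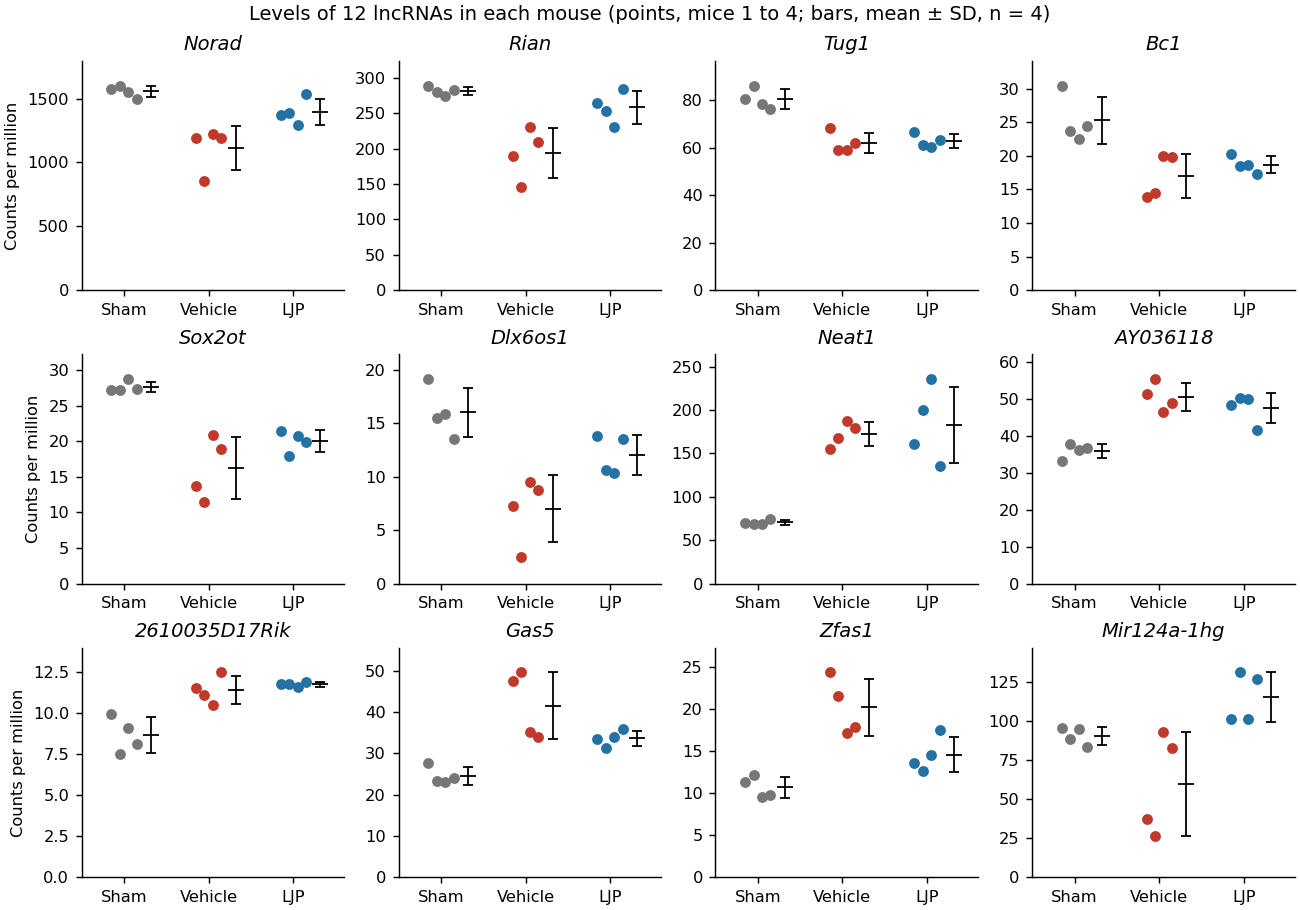
CPM of 12 lncRNAs in each mouse (points, mice 1 to 4 from left to right in each group) with the mean and SD of the group (bars, n = 4), on axes that start at 0. Neat1, Gas5 and Zfas1 lie higher, and Norad, Rian, Tug1, Sox2ot and Dlx6os1 lower, in all 4 Vehicle mice than in any Sham mouse, while Mir124a-1hg is low in Vehicle mice 1 and 2 only.

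**Figure D4:**
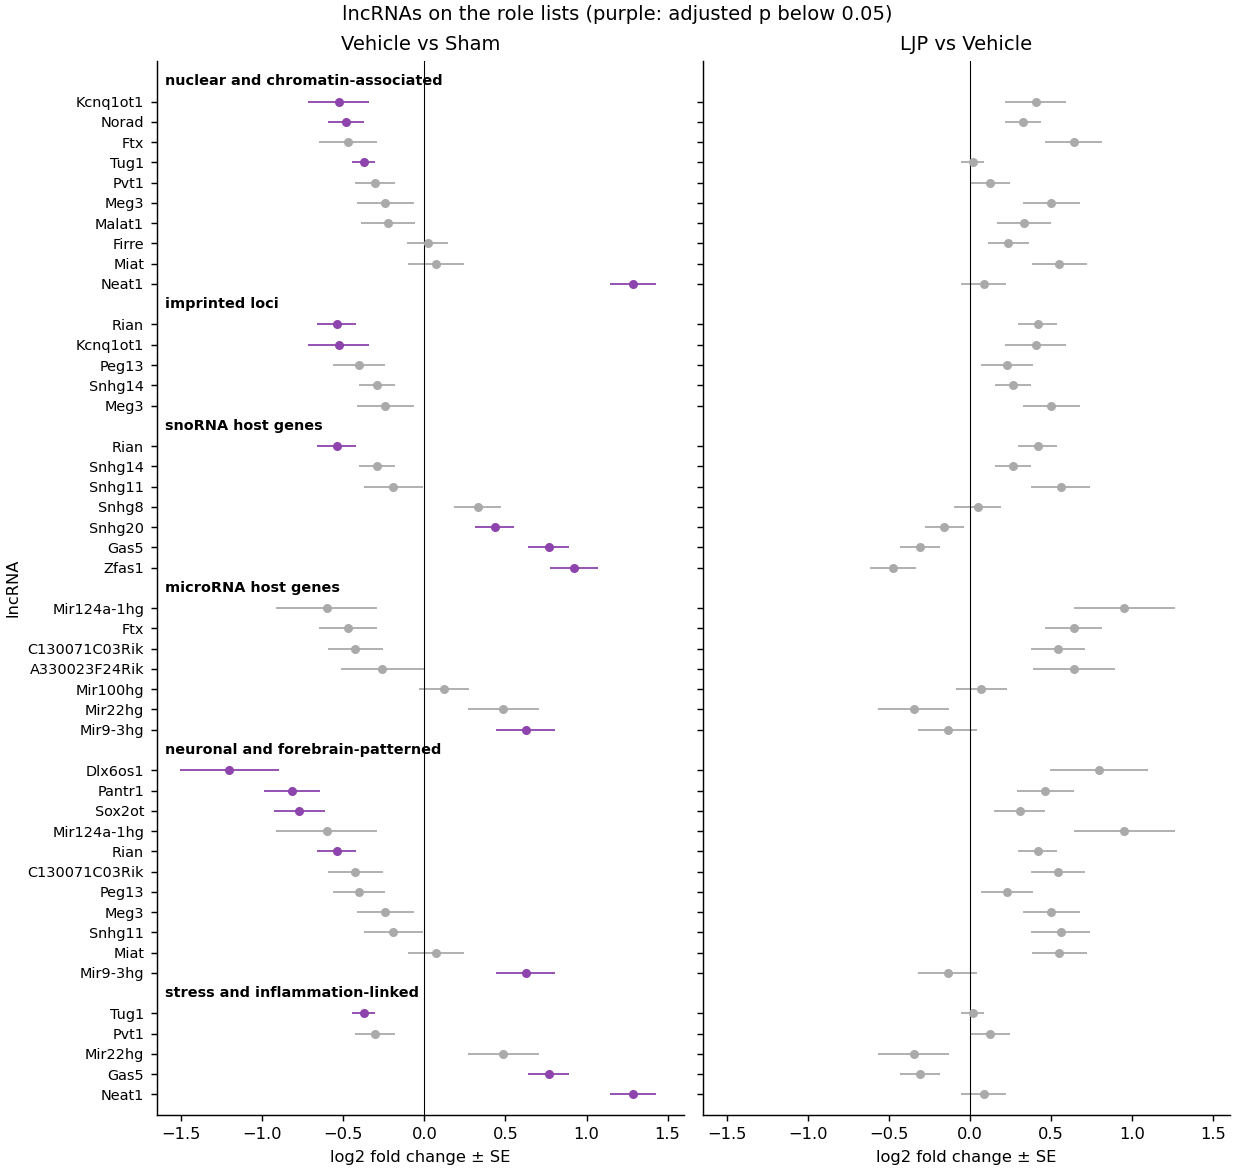
Log2 fold change with its standard error for each member on the 6 role lists, Vehicle against Sham on the left and LJP against Vehicle on the right, with purple points for an edgeR adjusted p below 0.05. On the left Neat1 has the highest value (1.29) and Dlx6os1 the lowest (-1.20), and on the right no point is purple.

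Outside the role lists, 5 more of the 8 members with the smallest p-values among those that rose were Gm38733, AY036118, Gm44502, Gm20605 and 2410006H16Rik. AY036118 was at 33.2, 37.7, 36.1 and 36.7 CPM in the Sham and 51.4, 55.3, 46.4 and 48.98 in the Vehicle mice (log2 change 0.49, SE 0.084, edgeR adjusted p = 0.00117). Its listed span (chr17:39848112-39898385) shares 716 bases with CT010467.1, a ribosomal RNA gene of GENCODE M21 on the same strand, so reads from ribosomal RNA and from AY036118 cannot be told apart and its value is uncertain. Gm44502 (0.79) and Gm20605 (0.61) share strand and span with the coding genes Chkb (0.81) and Lrch4 (0.61) and are uncertain for the same kind of reason. Gm44502 was at 0.43 without Vehicle mice 1 and 2. 2610035D17Rik, which overlaps no coding gene, rose from 8.68 ± 1.08 to 11.4 ± 0.84 CPM (SD, n = 4, log2 change 0.39, SE 0.11, edgeR adjusted p = 0.0145).

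The members with the smallest p-values among those that fell were, beside Tug1, B230209E15Rik and Sox2ot, A830082N09Rik (-0.58), Gm39425 (-0.84), Gm20300 (-0.63), Gm19378 (-0.73) and Gm44040 (-0.96), with adjusted p between 0.000651 and 0.00291 over the 8. A830082N09Rik, on chromosome 10 with no overlapping coding gene, had the smallest standard error of them after Tug1 (0.089 against 0.070). It was at 18.8, 19.1, 18.9 and 18.9 CPM in the Sham and 13.4, 12.2, 11.4 and 13.7 in the Vehicle mice. Gm44040, inside Itpr1 on the opposite strand, was at 14.9, 14.00, 15.01 and 17.8 and 6.40, 6.45, 10.1 and 8.73 CPM, and Itpr1, the calcium release channel, had a log2 fold change of -0.91. Gm19378 (chr15:89767615-89769242) was at 22.2, 16.3, 19.7 and 15.2 CPM in the Sham and 9.67, 9.67, 11.8 and 13.2 in the Vehicle mice, so its groups did not overlap. Beside the members that the naming rule took, 12 more rose, by 0.34 to 0.70 on the log2 scale, and 25 more fell, with log2 fold changes from -0.95 to -0.28.

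The largest changes were Gm15418 upward and Gm31251 downward, both low in count and wide in spread. In raw counts, Gm15418 had 51 to 90 in the Sham and 81 to 147 in the LJP mice. These lay under the mean of 198 of the last member, against 517 and 1564 in Vehicle mice 1 and 2. Its place among the members thus rested on its Vehicle counts, so its change is not independent of how members were chosen. Gm31251 had 274 to 467 in the Sham and 3 to 100 in the Vehicle mice, so its place rested on counts outside the Vehicle group. Gm15418, opposite the basement membrane collagen gene Col4a1, had 4.50, 4.90, 2.79 and 3.73 CPM under Sham, 23.5, 67.2, 5.81 and 12.6 under Vehicle and 6.09, 4.29, 7.995 and 4.51 under LJP (log2 change 2.78, SE 0.59, edgeR adjusted p = 0.00369). The value moved with Vehicle mouse 2: without it the log2 fold change was 1.81 (adjusted p = 0.00309), and without Vehicle mice 1 and 2 it was 1.20. Col4a1 itself changed by 3.17, and endothelial and pericyte markers were highest in the same mouse (1642 CPM). Gm31251, opposite the myosin gene Myh7, was at 19.3, 25.4, 16.2 and 14.2 CPM in the Sham and 4.22, 0.129, 5.38 and 4.47 in the Vehicle mice, with 3 counts in Vehicle mouse 2 (log2 change -2.41, SE 0.57, edgeR adjusted p = 0.00628). Without that mouse the log2 fold change was -2.01 (adjusted p = 0.0002). Gm42339 and Gm46875, very long neighbors on opposite strands of chromosome 4 (chr4:142379702-142453682 and chr4:142304596-142371960), overlap no coding gene. Gm42339 was at 14.01, 19.4, 13.6 and 12.96 CPM under Sham and 2.45, 5.28, 9.74 and 7.38 under Vehicle (log2 change -1.28, SE 0.36, edgeR adjusted p = 0.0149). It was at -0.81 without Vehicle mice 1 and 2. Gm46875 had a log2 fold change of -1.03 (adjusted p = 0.0398) and kept its call in 6 of 19 alternatives, and lost it without any 1 of the Sham mice, Vehicle mice 1, 2 or 4, or LJP mice 1 or 4 (adjusted p between 0.0511 and 0.0908), with -0.60 without Vehicle mice 1 and 2.

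Most members share their place with a coding gene. By span, 113 overlap one on the opposite strand, 17 on the same strand, 3 on both and 67 on neither, 35 of the latter within 5 kb of one. The library kit named in the labels does not mark strand, so reads of an opposite-strand pair cannot be told apart where their exons coincide. Counting pairs on either strand, the coding partner had the higher mean count in 116 of 132 pairs, over 10 times higher in 31. Of 132 pairs in which both were tested, 105 had log2 fold changes of 1 sign in Vehicle against Sham, 63 differed by less than 0.1, and the median absolute gap was 0.12. Over these pairs Pearson's r was 0.65 and Spearman's rho 0.66, a description across genes that share libraries and, in part, reads. Among 35 members with no overlap but a coding gene within 5 kb, 19 had its sign and the median absolute gap was 0.30, and among 25 farther away 13 had it, with a gap of 0.39.

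Several of the most abundant members had nearly the log2 fold change of a more abundant partner on the other strand. Gm38733, opposite the actin gene Actb, changed by 0.84 against 0.83 for Actb, with 3203 mean counts against 42185. Gm51543, opposite Cx3cl1, the neuronal chemokine fractalkine, changed by -0.95 against -0.95, and B130046B21Rik, opposite the dendritic gene Ddn, by -0.87 against -0.90. Without Vehicle mice 1 and 2 these members were at -0.51 and -0.54. Grin1os and the NMDA receptor gene Grin1 had values of -0.34 against -0.34, Gm39876 and Dgkz of -0.31 against -0.37, A230070E04Rik and the neurofilament gene Nefm of -0.34 against -0.43, and Gm30368 and Pdxp of -0.088 against -0.088, none of these 4 members passing. Without Vehicle mouse 2 Gm30368 was at -0.031 (and at -0.15 without Vehicle mouse 1), Grin1os at -0.20, Gm39876 at -0.20 and A230070E04Rik at -0.18, and without Vehicle mice 1 and 2 Gm39876 was at -0.026. Such a member is uncertain as a transcript of its own. In 9 pairs the gap was over 1 on the log2 scale, in Gm31251 and Myh7 (-2.41 against -1.11) with the same sign. Gas5 changed by 0.77 against -0.45 for Zbtb37, Zfas1 by 0.92 against -0.12 for Znfx1, which did not pass, and Kcnq1ot1 by -0.53 against 2.44 for Kcnq1, a potassium channel gene with 36.4 mean counts. Brip1os changed by 0.70 against -0.35 for Med13, 2810025M15Rik by 0.68 against -0.43 for Rasal2, and Gm31356 by -0.87 against 0.32 for Gpam, each pair with both genes past the threshold in opposite directions, while Gm26782 (-0.026 against 1.38 for Tep1) and 4933439C10Rik (-0.14 against 1.03 for Zkscan17) had values near 0 beside partners that rose. These pairs were picked for their gaps after the values had been seen. In the 67 members with no overlapping coding gene, 6 rose and 19 fell, and in the 113 with one on the opposite strand only, 15 rose and 26 fell.

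**Figure D5:**
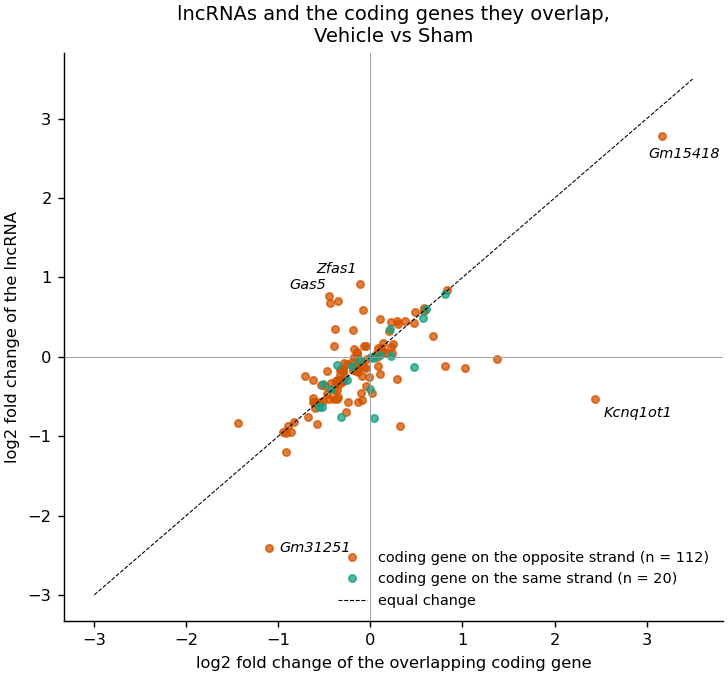
Log2 fold change in Vehicle against Sham of each lncRNA (vertical axis) and of the coding gene it overlaps (horizontal axis), with orange points for partners on the opposite strand and green points for the same strand, and a dashed line of equal change. Of 132 points 63 lie within 0.1 of the line, while Kcnq1ot1, Gas5 and Zfas1 lie far from it.

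The second comparison asked which lncRNAs differed with the polysaccharide, LJP against Vehicle. No member passed an edgeR adjusted p of 0.05 in either direction (smallest adjusted p = 0.0678), where 0.0% of all genes passed as higher and 0.0228% as lower. At an unadjusted p below 0.05, 54 members were higher under LJP and 15 lower, against 12.3% and 17.4% of all genes. DESeq2 called 17 members higher and 6 lower at its adjusted p below 0.05, against 3.61% and 8.99% of the genes it tested. The log2 fold change was above 0 in 151 of the 200, with a median of 0.20 against -0.00174 over all genes. That median was 0.11 without Vehicle mouse 2 and 0.064 without Vehicle mice 1 and 2. Every LJP mouse lay above every Vehicle mouse in 16 members and below in 1, where all genes gave 5.77% and 5.91%. These counts moved when 1 Vehicle mouse was left out: edgeR called 41 members higher and 13 lower without Vehicle mouse 3, where 8.46% and 13.1% of all genes passed, and 14 and 4 without Vehicle mouse 4, where 3.35% and 8.38% did. Among those called without Vehicle mouse 3 were the 6 members given first below and, of the neuronal ones, Mir124a-1hg, Snhg11, Miat, Rian, C130071C03Rik and Dlx6os1. DESeq2 called those 6 and, of the neuronal ones, Meg3, Snhg11, Miat, Rian, Mir124a-1hg and C130071C03Rik. Without Vehicle mice 1 and 2 edgeR called 0 in both directions, against 0.0% and 0.0443% of all genes. The comparison uses the same Vehicle mice as the one with Sham, so the values below stand side by side and are not independent of those above.

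The smallest p-values, none of which passed, belonged to A830036E02Rik, B130055M24Rik and Gm44040 among the higher members and Gm15418, AW047730 and Zfas1 among the lower ones. The place of Gm15418 among the members rested on its Vehicle counts. Its log2 fold change was -2.26 (adjusted p = 0.0678), and was -1.29 without Vehicle mouse 2 and -0.69 without Vehicle mice 1 and 2. Leaving out those mice gave A830036E02Rik 0.44, B130055M24Rik 0.33, Gm44040 0.45, AW047730 -0.34 and Zfas1 -0.27. A830036E02Rik, opposite the keratin gene Krt12 on chromosome 11, was at 16.2, 14.5, 25.2 and 20.9 CPM in the Vehicle and 24.8, 39.4, 28.6 and 32.6 in the LJP mice, which overlapped (log2 change 0.71, SE 0.17, edgeR adjusted p = 0.0678). In Vehicle against Sham it had fallen (-0.56, adjusted p = 0.0211), a call that ended without Sham mouse 1 (-0.54, adjusted p = 0.0556) or Vehicle mouse 1 (-0.49, adjusted p = 0.0579), and whose value was -0.30 without Vehicle mice 1 and 2. B130055M24Rik, opposite the zinc finger gene Zfp689, was at 13.9, 13.1, 19.3 and 19.1 and 27.3, 24.03, 19.5 and 25.8 CPM, where every LJP mouse lay above every Vehicle mouse (log2 change 0.57, SE 0.15, edgeR adjusted p = 0.0678). Gm44040 was at 7.92 ± 1.82 and 12.8 ± 2.99 CPM (SD, n = 4, 0.70, adjusted p = 0.068). AW047730, which overlaps no coding gene and lies beside Gm3764 on chromosome 3, had 24.9, 23.5, 20.8 and 18.7 CPM under LJP against 30.5, 32.96, 23.4 and 32.3 under Vehicle (log2 change -0.44, SE 0.12, edgeR adjusted p = 0.0696), and had a value near 0 in Vehicle against Sham (0.00557). Zfas1 was at 13.5, 12.6, 14.5 and 17.4 CPM in the LJP mice against 24.3, 21.5, 17.1 and 17.8 in the Vehicle mice (log2 change -0.48, SE 0.14, edgeR adjusted p = 0.0739).

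By role, none of the lists had a member past the adjusted threshold in LJP against Vehicle, and the values were these. Of 11 neuronal or forebrain-patterned members, 8 had an unadjusted p below 0.05, all of them higher under LJP, and the list had a median of 0.50 on the log2 scale. Of 7 microRNA hosts, 4 were higher and 0 lower at that level (median 0.54). Of 5 imprinted members, 3 were higher and 0 lower at that level (median 0.40). Of 10 nuclear members, 4 were higher and 0 lower at that level (median 0.33). Of 7 snoRNA hosts, 3 were higher and 2 lower at that level (median 0.046). Of 5 stress-linked members, 0 were higher and 1 lower at that level (median 0.017). The lists share members, and over all 200 the counts were 54 and 15. Mir124a-1hg was at 101, 131, 101 and 127 CPM in the LJP mice, each above every Vehicle mouse (log2 change 0.95, SE 0.31, edgeR adjusted p = 0.0865). Meg3 (0.50), Snhg11 (0.56), Miat (0.55), Rian (0.42), C130071C03Rik (0.54), Dlx6os1 (0.79) and Pantr1 (0.46) had adjusted p between 0.0699 and 0.116. Dlx6os1 was at 0.51 without Vehicle mouse 2. Without Vehicle mice 1 and 2 the 8 log2 fold changes lay between 0.20 (Pantr1) and 0.41 (Meg3), with Mir124a-1hg at 0.39 and C130071C03Rik at 0.26. Of 12 neuronal marker genes 3 were higher and 0 lower at an unadjusted p below 0.05 in the same comparison (median log2 fold change 0.28), and their part was not tested. Miat, a nuclear RNA of neurons, was at 290.1, 474, 348 and 413 CPM in the LJP mice against 179.5, 264, 303 and 294 in the Vehicle and 273, 221, 255 and 241 in the Sham mice, so LJP mice 2, 3 and 4 lay above every Vehicle and Sham mouse. Neat1 (0.084) and Tug1 (0.017) had values near 0, and the Neat1 groups overlapped. Among the short snoRNA-linked members Gas5 had a log2 fold change of -0.31 (adjusted p = 0.13, and -0.044 without Vehicle mice 1 and 2), Snhg20 of -0.16 (-0.084 without Vehicle mouse 2, -0.24 without LJP mouse 2 and -0.022 without Vehicle mice 1 and 2), 2410006H16Rik of -0.60 and Snhg8 of 0.046. The LJP libraries were also those with almost no airway epithelium counts and with lower endothelial marker sums than the Vehicle libraries, whose part was not tested.

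The third comparison set the LJP group against the Sham group. Of the 200, 3 rose (Neat1, AY036118 and 2610035D17Rik) and 1 fell (Tug1), against 3.85% and 0.9% of all genes. The median log2 fold change was -0.031, and every LJP mouse lay above every Sham mouse in 18 members and below in 31, against 12.9% and 12.0% of all genes. Neat1 was higher by 1.37 on the log2 scale (SE 0.14, edgeR adjusted p = 0.000411), beside 1.29 in Vehicle against Sham, and kept its call in all 19 alternatives. Tug1 was at 66.7, 60.99, 60.5 and 63.04 CPM in the LJP mice against 80.6, 86.1, 78.6 and 76.3 in the Sham mice (log2 change -0.36, SE 0.070, edgeR adjusted p = 0.0115). That call ended without Sham mouse 2 (-0.32, adjusted p = 0.0519) or LJP mouse 3 (-0.34, adjusted p = 0.0527). AY036118, uncertain as said above, was at 47.6 ± 4.04 CPM (SD, n = 4, 0.40, adjusted p = 0.016), and lost its call without Sham mouse 1 (0.37, adjusted p = 0.061), Sham mouse 3 (0.41, adjusted p = 0.0501) or LJP mouse 3 (0.38, adjusted p = 0.0631). 2610035D17Rik was at 11.8, 11.8, 11.6 and 11.9 CPM in the LJP mice against 9.98, 7.52, 9.10 and 8.14 in the Sham mice (log2 change 0.44, SE 0.11, edgeR adjusted p = 0.0418) and kept its call in 10 of 19 alternatives, losing it without Sham mice 2, 3 or 4 or any 1 of the LJP mice (adjusted p between 0.0858 and 0.136). Bc1 (-0.44, adjusted p = 0.104) and AW047730 (-0.43, adjusted p = 0.0682) did not pass, although every LJP mouse lay below every Sham mouse in both. Bc1 passed in 4 of 19 alternatives: Sham and LJP mice alone, without Vehicle mouse 2, without Vehicle mice 1 and 2, and DESeq2. AW047730 passed in those and without Vehicle mouse 3.

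The counts of this comparison moved with the Vehicle mice, which enter it through the shared filter, scaling and estimate of spread. The part of each was not tested. With Sham and LJP mice alone, 16 members rose and 36 fell, and 18 rose without Vehicle mice 1 and 2, where 35 fell. All genes gave 12.1% and 11.8% in the former and 12.3% and 12.0% in the latter fit. Without Vehicle mouse 2 they were 8 and 14, where 7.77% and 5.5% of all genes passed, and 5 and 2 without Vehicle mouse 1, where 4.34% and 1.19% did. A single member rose without Sham mouse 3 or LJP mouse 3 (1 each), 0 fell without Sham mouse 2 or LJP mouse 3, and 2 fell without Vehicle mouse 3. All genes gave 2.11% and 0.291% without Sham mouse 2, 2.08% and 0.296% without Sham mouse 3, 1.96% and 0.241% without LJP mouse 3 and 4.38% and 0.94% without Vehicle mouse 3.

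Spread within groups was widest in the Vehicle mice. The SD of log2 CPM had a median over the 200 of 0.11 in the Sham, 0.312 in the Vehicle and 0.157 in the LJP group, and over all genes tested of 0.12, 0.306 and 0.155. The members with the largest SD were Gm31251, Gm15418 and Gm51694 in the Vehicle group, Gm15418, Gm31251 and Gm3227 in the Sham group, and Gm31251, Gm42339 and Gm46875 in the LJP group. Gm51694, opposite Arpp21, a gene of striatal neurons, was at 0.953, 3.61, 13.6 and 8.94 CPM in the Vehicle mice against 11.97 ± 1.35 (SD, n = 4) in the Sham group, and Gm3227, opposite the RNA-binding protein gene Celf4, was at 2.18, 6.96, 13.99 and 11.1 against 12.3 ± 2.53. In both, Vehicle mouse 1 was the lowest and mouse 3 lay within the Sham range, and neither passed in Vehicle against Sham (adjusted p = 0.219 and 0.303). Without Vehicle mouse 3 Gm51694 went from -0.83 to -1.43 and passed (adjusted p = 0.0341), and it was at -0.47 without Vehicle mouse 1 and at -0.095 without Vehicle mice 1 and 2. Among the more even members Gm28043, which shares strand and span with Cmtr1, had 139, 140.2, 138 and 138 CPM under Sham, 159, 134, 135 and 137 under Vehicle, where mouse 1 was the highest, and 142, 147, 135 and 144 under LJP, with a log2 fold change of 0.025 in Vehicle against Sham. Gm20716, a transcript over Adnp, was similarly even (-0.12, adjusted p = 0.139), while Rnf227, with 103 ± 3.25 and 82.7 ± 12.4 CPM, fell (-0.32, adjusted p = 0.0185) and missed the threshold without Sham mouse 1 (-0.31, adjusted p = 0.0528). At the edge of the 200, Gm16069 had a log2 fold change of 0.44 (adjusted p = 0.0381) and kept its call in 8 of 19 alternatives, losing it without Sham mice 1, 3 or 4, Vehicle mice 1, 2 or 4 or LJP mouse 1 (adjusted p between 0.0509 and 0.1). Stk35os1 (0.052), Gm31566 (-0.16) and Gm6145 (-0.58) did not pass. Gm6145 was at -0.37 without Vehicle mouse 1 but passed without Vehicle mouse 3 (-0.81, adjusted p = 0.0138) or 4 (-0.72, adjusted p = 0.0426), and Stk35os1 ranged from 0.00927 without Sham mouse 4 to 0.10 without Vehicle mouse 3.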

How the data were processed

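RNA of the ischemic hemispheres of 12 mice, grouped as Sham, Vehicle and LJP from the labels (4 each), was sequenced after poly(A) selection with a kit that does not mark strand. The authors deposited raw counts per gene. featureCounts and DESeq2, and the builds GRCm39 and mm10, are named in the submitters' processing notes without a role, and the aligner, strand setting and handling of shared reads were not given in the sources used here. Gene positions in the deposited count table were checked against RefSeq GRCm38.p6, where 39754 of 39756 rows had the same start and end, so coordinates are on GRCm38. The labels number the samples of a group and give them all 1 batch and 1 housing protocol, but no litter, cage or day, so p-values measure the spread between these samples.

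Counts were filtered with filterByExpr, scaled with TMM and tested over all genes with edgeR 4.0.16 (quasi-likelihood F test, all groups in 1 fit, R 4.3.3), with Benjamini-Hochberg adjusted p below 0.05 as the call. CPM values of single genes are TMM-scaled without a prior count, while the levels per kb and the marker sums use library size alone. DESeq2 1.42.0, other scalings, no filter, a replicate block, the study's thresholds, other rankings of members and leaving out mice were alternatives. The scripts were tested on simulated counts with known changes. The members, role lists and marker lists were chosen with earlier results of these data known. Genes were named by rule: the 20 most abundant members, up to 8 in each direction with the smallest p per comparison (3, as not passed, where fewer than 3 passed), the 3 largest changes called in each direction, members on role lists, 5 on each side of the rank limit, the 3 with the largest SD per group, and coding genes that overlap them. Pairs with a gap above 1 were added after their values were seen. Mature microRNA sequences and start regions came from RefSeq (GRCm38.p6), where 159 members matched, and Bc1 from GENCODE M21.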

Additional observations from a re-analysis of the deposited data

Results flagged for a closer look

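Each named member was examined within each group for a mouse whose gap to the nearest other mouse took up most of the range of the group (Dixon's ratio of gap to range, above its tabulated critical value for 4 mice). This marked 11 of 186 groups (5.91%), where chance marks about 5%. In the Vehicle group they were Norad in Vehicle mouse 2 (856 CPM, lowest, ratio 0.901), Grin1os in Vehicle mouse 2 (85.6 CPM, lowest, ratio 0.923), Gm28043 in Vehicle mouse 1 (159 CPM, highest, ratio 0.862), Gm20605 in Vehicle mouse 2 (50.7 CPM, highest, ratio 0.868) and Mir100hg in Vehicle mouse 2 (25.7 CPM, highest, ratio 0.845). In the Sham group they were Gm38733 in Sham mouse 1 (123 CPM, highest, ratio 0.852), Sox2ot in Sham mouse 3 (28.8 CPM, highest, ratio 0.856), Gm42339 in Sham mouse 2 (19.4 CPM, highest, ratio 0.836) and Gm16069 in Sham mouse 2 (11.3 CPM, highest, ratio 0.939). In the LJP group they were Gm30368 in LJP mouse 3 (87.8 CPM, lowest, ratio 0.901) and A330023F24Rik in LJP mouse 2 (40.1 CPM, highest, ratio 0.894). Without Vehicle mouse 2 the log2 fold change of Norad in Vehicle against Sham was -0.38 and that of Gm20605 0.45, and without Sham mouse 2 that of Gm16069 was 0.57.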

How the results depend on the processing

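Counts of members called are given as higher and lower at an edgeR adjusted p below 0.05, with the shares of all genes in the same fit in parentheses. In Vehicle against Sham the 25 and 47 were 25 and 50 with RLE scaling (22.5% and 17.7%), 28 and 41 with library size alone (27.0% and 13.1%), 22 and 43 with no filter (13.1% and 8.15%), 20 and 33 with the groups compared alone (19.1% and 11.6%), 25 and 55 with DESeq2 (18.8% and 14.5%), 15 and 46 without Vehicle mice 1 and 2, chosen after seeing the data (15.7% and 14.0%), 21 to 28 and 32 to 70 leaving out 1 mouse (18.2% to 25.3% and 11.3% to 20.6%), and 12 and 24 at the thresholds of the study's methods, an absolute log2 fold change above 0.58 with an unadjusted p below 0.01 (15.3% and 6.39%). In LJP against Vehicle the 0 and 0 became 1 and 1 with no filter (0.166% and 1.8%), 17 and 6 with DESeq2 (3.61% and 8.99%), 4 and 1 at the study's thresholds (1.07% and 5.89%), and 0 to 41 and 0 to 13 leaving out 1 mouse (0.0% to 8.46% and 0.0167% to 13.1%). In LJP against Sham the 3 and 1 became 5 and 1 with library size alone (4.45% and 0.598%), 16 and 36 with those groups alone (12.1% and 11.8%), 5 and 3 with DESeq2 (5.82% and 2.03%), 18 and 35 without Vehicle mice 1 and 2 (12.3% and 12.0%), 2 and 0 at the study's thresholds (5.1% and 0.797%), and 1 to 8 and 0 to 14 leaving out 1 mouse (1.96% to 7.77% and 0.241% to 5.5%). Where mice or groups were left out fewer samples entered the fit, and for the other changes the cause was not tested. Ranking members by mean CPM gave the same 200 members, so it could not change a count. Ranking by the lowest mouse kept 181 of them and left each count within 1.5 times.

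The replicate numbers of the labels did not pair the mice: same-numbered mice of different groups had correlations of deviations between -0.32 and 0.11, and 5 of 24 mouse and group pairs matched best with their own number. With the replicate block the counts were 23 and 43, 0 and 0, and 2 and 1.

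Among the named members run under each alternative, the signs that turned belonged to differences that did not pass. In Vehicle against Sham, AW047730 was -0.00498 with the replicate block and -0.000903 with DESeq2, and without Vehicle mice 1 and 2 the log2 fold changes were Gm28043 -0.035, Firre -0.054, AW047730 -0.10, A330023F24Rik 0.21, Mir22hg -0.016, Mir100hg -0.031 and Gm3227 0.022. In LJP against Vehicle, library size alone gave Gm28043 -0.017 and Tug1 -0.00674, and leaving out those Vehicle mice gave Peg13 -0.014, Neat1 -0.00343, Mir9-3hg 0.19, Mir22hg 0.15 and Pvt1 -0.033. Leaving out 1 mouse gave ranges across 0 for Miat (-0.011 to 0.21), Gm28043 (-0.038 to 0.045), Firre (-0.10 to 0.087), AW047730 (-0.053 to 0.10) and Mir100hg (-0.063 to 0.19) in Vehicle against Sham, and for Neat1 (-0.061 to 0.21), Gm28043 (-0.019 to 0.069), A230070E04Rik (-0.19 to 0.10), Tug1 (-0.012 to 0.065), Mir9-3hg (-0.27 to 0.077), Mir100hg (-0.00315 to 0.25) and Snhg8 (-0.050 to 0.16) in LJP against Vehicle. Counts set the precision of the least abundant members: 3 counts in a library is the limit that a count of 0 allows, and Gm31251 had that many in Vehicle mouse 2.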
